A study of Homo sapiens with 6 samples.

Results

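FOXO1 and FOXO3, 2 forkhead transcription factors, and 8 genes known to rise when PI3K-AKT signaling falls were followed in H460 cells, a human cell line from a large cell carcinoma of the lung. These 10 genes (FOXO1, FOXO3, KLHL24, IRS2, INSR, BCL6, CCNG2, SESN1, SESN3 and TXNIP) are 10 of the 31762 genes in the deposited count table. They were chosen by name, from what is known of the pathway, at a time when the fold changes between fluoxetine and control in these same libraries had already been seen. Their levels and differences are therefore given as a description, with no p-value, and which of them passed the threshold in the fit over all genes is given for description alone.

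RNA was sequenced from wild-type H460 cells in 3 control libraries and in 3 libraries of cells exposed to fluoxetine, a serotonin reuptake inhibitor used as an antidepressant, at 20 µM for 24 h. What the control cells received in place of the drug was not given in the sources used here. Nothing states that the 3 libraries of a group came from separate cultures, so the p-values measure the spread between these libraries, which may be technical. All 6 libraries come from a single cell line, and RNA counts measure neither the phosphorylation nor the location of a protein.

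In the insulin and growth factor pathway, receptors and their IRS adaptors activate the lipid kinase PI3K, which in turn activates the kinase AKT. AKT phosphorylates the FOXO factors, which are then held outside the nucleus by 14-3-3 proteins. When AKT activity falls, FOXO factors enter the nucleus and induce genes that slow the cell cycle and growth, and they also induce the insulin receptor and IRS2, which feeds back on the pathway. The study asked by western blot whether fluoxetine lowers AKT and mTOR signaling. It reported that the phosphorylated share of AKT, mTOR and p70S6K fell with dose. It also reported that the shares of AKT and mTOR recovered when ATF4 was knocked down. The transcripts described here belong to that same axis.

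The libraries held between 16157507 and 27823667 counts on genes, and each fluoxetine library was smaller than each control library. Levels are given as CPM (counts per 1000000 counts of a library, after TMM normalization), where 3 counts, the limit that a count of 0 allows, are worth 0.108 to 0.186 CPM by counting error alone. The smallest count of any of the 10 genes was 34 and the largest 3430, so all 10 passed the filter on low counts. The epithelial markers KRT7, KRT8, KRT18, KRT19, EPCAM and CDH1 summed to between 3058 and 4028 CPM in control and between 2689 and 3264 CPM in fluoxetine libraries, although CDH1 had at most 3 counts in any library. The 3 endothelial markers PECAM1, VWF and KDR and the leukocyte marker PTPRC had at most 3 counts in any library, and 1 further endothelial and 3 further leukocyte markers were not analysed here. PTPRC and CD14, the 2 leukocyte markers analysed, summed to between 1.69 and 2.19 CPM in control and between 2.14 and 2.39 CPM in fluoxetine libraries. The 5 fibroblast markers, of which COL1A2 had at most 3 counts, summed to between 12.9 and 14.3 CPM in control and between 16.5 and 17.4 CPM in fluoxetine libraries, and the part of that difference in the results was not tested. In bulk RNA, fewer cells of a type and less RNA per cell cannot be told apart.

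DNA before the RefSeq starts of 4 of the genes is shown here. It was chosen because it holds short matches to letters that FOXO or E-box factors can bind. Of these genes, 3 were higher and 1 was lower with fluoxetine. RefSeq promoter windows of 300 bases on GRCh38.p14, from 250 bases before to 50 after a gene's start, were found for all 10 genes, in 17 windows. They were searched on both strands for GTAAACA, the core of the FOXO binding element, for AAAACAA, a form of the insulin response sequence, and for CACGTG, the E-box read by many basic helix-loop-helix factors. These letters were chosen with the windows in view, and no match overlapped another. Capitals mark the matches, and AAAACAA reads TTGTTTT where it lies on the other strand. The stretches of KLHL24 (chr3:183635373-183635567, plus strand), IRS2 (chr13:109786584-109786833, minus strand) and TXNIP (chr1:145996601-145996829, minus strand) end before the annotated starts. That of CCNG2 (chr4:77157165-77157194, plus strand) is limited to 30 bases. It lies before the RefSeq start (77157207) but past the start in the deposited annotation (77157151), so inside the gene as counted here.
KLHL24: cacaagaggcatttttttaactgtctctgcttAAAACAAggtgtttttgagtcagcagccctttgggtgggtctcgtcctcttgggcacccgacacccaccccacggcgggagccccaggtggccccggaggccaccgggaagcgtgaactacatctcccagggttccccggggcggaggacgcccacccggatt
IRS2: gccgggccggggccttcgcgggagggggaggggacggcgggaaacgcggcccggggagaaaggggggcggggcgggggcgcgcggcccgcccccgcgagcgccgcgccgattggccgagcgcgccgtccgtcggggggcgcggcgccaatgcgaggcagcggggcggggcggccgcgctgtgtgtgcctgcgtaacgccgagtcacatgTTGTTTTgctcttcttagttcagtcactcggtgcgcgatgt
TXNIP: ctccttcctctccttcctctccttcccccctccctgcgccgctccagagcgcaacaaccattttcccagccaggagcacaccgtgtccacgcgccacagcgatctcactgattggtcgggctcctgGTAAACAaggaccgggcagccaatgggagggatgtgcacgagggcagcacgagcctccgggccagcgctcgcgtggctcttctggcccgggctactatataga
CCNG2: tccgcggggagtCACGTGccccgccccctt

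The FOXO element GTAAACA was found in 1 of the 17 windows, that of TXNIP, and in 3.42% of all 35116 promoter windows. AAAACAA was found in 5 of the 17 windows, those of KLHL24, IRS2, CCNG2, BCL6 and SESN3, and in 7.46% of all windows. In CCNG2 it lay past the RefSeq start as well and is not part of the stretch shown. The E-box form CACGTG was found in the CCNG2 window alone, and in 7.26% of all windows. Windows of FOXO1, FOXO3, INSR and SESN1 held none of these letters, which says nothing about sites elsewhere. Only these exact letters were searched, so other forms of the sites were not looked for in any window, that of TXNIP included.

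Of the 10 genes, 8 had a higher fitted level with fluoxetine and 2, SESN1 and TXNIP, had a lower one. The median log2 fold change of the 10 was 0.43, beside 0.03 over all 15646 genes tested. KLHL24 and CCNG2 were the only 2 of the 10 with a fold change of at least 2. With edgeR's quasi-likelihood test, called at an adjusted p-value under 0.05, 6 of the 10 were called higher (FOXO1, KLHL24, IRS2, BCL6, CCNG2 and SESN3), where 7.76% of all tested genes were called higher. None (0) was called lower by edgeR, where 5.32% of all tested genes were, although 1 was lower at an unadjusted p-value under 0.05, DESeq2 called 1 and limma-voom called 0. In either direction 13.1% of all tested genes were called. The 6 became 3 without control replicate 2 and 3 without fluoxetine replicate 1. Since the genes were chosen with this comparison known, nothing is read from these counts. The levels of the fluoxetine libraries lay entirely above those of the control libraries for 7 genes (17.5% of all tested genes) and entirely below for 2 (14.4%). SESN3 was the one gene whose groups overlapped.

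**Figure D1:**
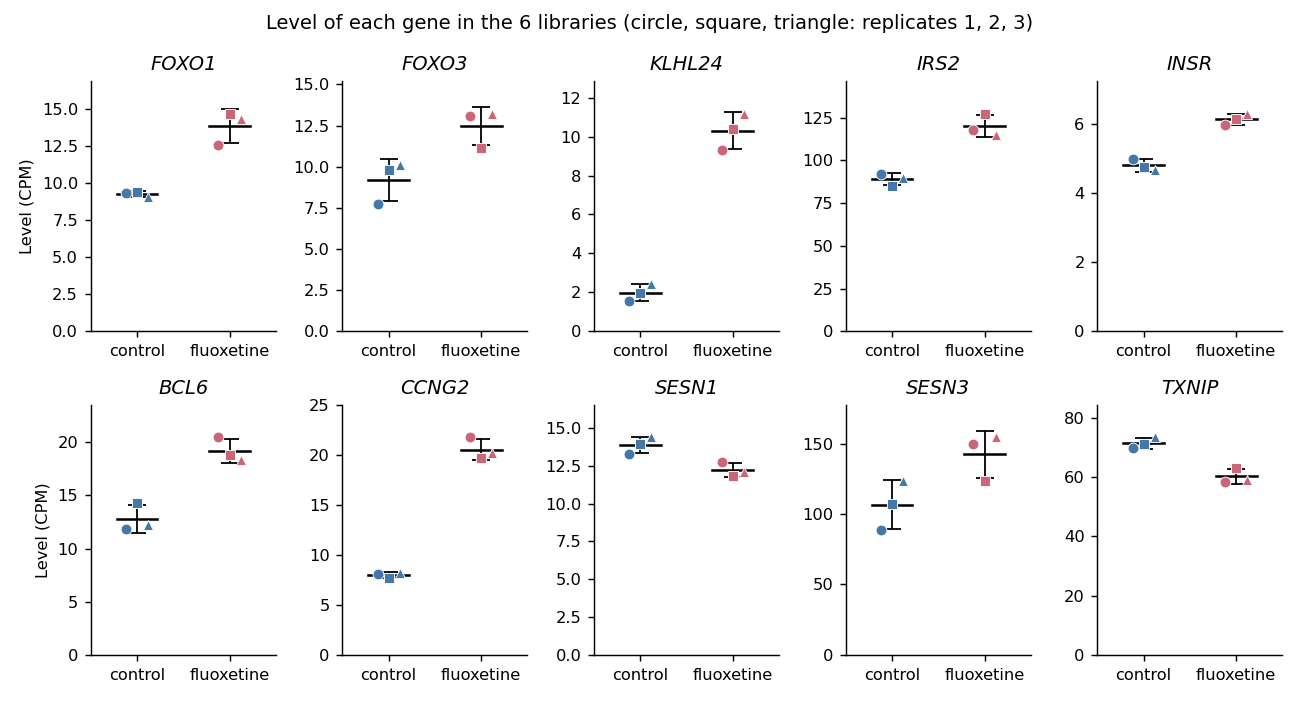
Level of each of the 10 genes in CPM (linear axis from 0) in the 3 control (blue) and 3 fluoxetine (red) libraries, with circles, squares and triangles for replicates 1, 2 and 3, and a horizontal line and bar for the mean and SD. The groups overlap in SESN3 alone, and SESN1 and TXNIP are the 2 genes with lower fluoxetine libraries.

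FOXO1 (ENSG00000150907; GRCh38, chromosome 13, 40469953 to 40666597, minus strand) encodes the FOXO factor best known in insulin responses. Its level was 9.34, 9.38 and 9.04 CPM in control replicates 1, 2 and 3, and 12.6, 14.7 and 14.3 CPM in fluoxetine replicates 1, 2 and 3. The control libraries were nearly alike, and each fluoxetine library lay above them. The mean went from 9.25 ± 0.185 to 13.9 ± 1.14 CPM (SD, n = 3), a fold change of 1.5 and a difference on the log2 scale of 0.58 (standard error 0.12), and of 0.55, not called, without control replicate 2. LINC00598, which shares exon sequence with FOXO1 on the same strand, had at most 5 counts in a library, beside 180 to 251 for FOXO1.

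FOXO3 (ENSG00000118689, chromosome 6, 108559835 to 108684774, plus strand) encodes the FOXO factor linked to quiescence and cell death genes. Its level was 7.71, 9.79 and 10.1 CPM in the control libraries and 13.1, 11.1 and 13.2 CPM in the fluoxetine libraries. The groups did not overlap, but the gap between fluoxetine replicate 2 and control replicate 3 was smaller than the spread within either group. The log2 fold change was 0.44 (standard error 0.14), and the gene was not among those called, although of the fits that left out a library it was called higher in that without control replicate 3 (0.48). FOXO3 has a near-identical copy, FOXO3B, annotated as a processed pseudogene, and reads from shared sequence can be lost or placed on either, so its count is uncertain. FOXO3B had 38, 46 and 58 counts in the control libraries and 30, 17 and 34 in the fluoxetine libraries, a log2 fold change of -0.36 (standard error 0.29) with overlapping groups. With both counts summed, the levels were 9.43, 12.2 and 12.2 CPM in control and 14.9, 12.1 and 15.2 CPM in fluoxetine libraries, so that the groups overlapped, and the log2 fold change was 0.32. The sum was added after the data were seen.

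KLHL24 (ENSG00000114796) spans chromosome 3 from 183635568 to 183684477 (plus strand). Its protein recruits substrates to cullin 3 ubiquitin ligases, and the gene had the largest difference of the 10 genes. It had 34, 38 and 67 counts in the control libraries and 153, 175 and 192 counts in the fluoxetine libraries, although the latter were sequenced less deeply. In CPM these were 1.54, 1.98 and 2.41 in control and 9.29, 10.4 and 11.2 with fluoxetine. The lowest fluoxetine library thus lay far above the highest control library. The fold change was 5.16 (log2 fold change 2.37, standard error 0.18), which was the 15th highest log2 fold change of all tested genes. KLHL24 also had the largest relative spread between control libraries, a coefficient of variation of 22%, against 2.0% for FOXO1.

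CCNG2 (ENSG00000138764, chromosome 4, 77157151 to 77433388, plus strand) encodes cyclin G2, an unusual cyclin that is high in resting cells and restrains the cell cycle. Its level was 8.07, 7.71 and 8.25 CPM in control and 21.8, 19.7 and 20.3 CPM in fluoxetine libraries. Both groups were tight and widely separated. The fold change was 2.57 (log2 fold change 1.36, standard error 0.11), the 101st highest of all tested genes. CCNG1, its paralog and a p53 target, went from 178.3 ± 11.1 to 215.7 ± 6.67 CPM (SD, n = 3), with a log2 fold change of 0.27 (edgeR adjusted p = 0.0324). CCNG1 passed the threshold in 7 of 14 alternatives, with adjusted p-values from 0.00712 to 0.20 over edgeR, DESeq2 and limma-voom, and of the fits that left out a library only in that without control replicate 3. DESeq2 (adjusted p = 0.0546) and edgeR with no filter on low counts (0.0602) did not call it.

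BCL6 (ENSG00000113916, chromosome 3, 187721377 to 187745727, minus strand) encodes a transcriptional repressor that FOXO factors are known to induce. Its level was 11.9, 14.3 and 12.2 CPM in control and 20.5, 18.8 and 18.3 CPM in fluoxetine libraries. Each fluoxetine library was above each control library, with a fold change of 1.5 (log2 fold change 0.59, standard error 0.12). Without fluoxetine replicate 1 the log2 fold change was 0.51 and not called. The antisense genes AC072022.1 and BCL6-AS1, which overlap it, had at most 4 counts in a library.

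IRS2 and INSR are the feedback genes nearest to the top of the pathway. IRS2 (ENSG00000185950, chromosome 13, 109752698 to 109786568, minus strand) encodes an adaptor that links the insulin and IGF1 receptors to PI3K. Its level was 92.4, 85.3 and 89.7 CPM in control and 118.1, 127.4 and 114.9 CPM in fluoxetine libraries, a fold change of 1.35 (log2 fold change 0.43, standard error 0.07). It was not called without control replicate 2 (0.36) or fluoxetine replicate 1 (0.42). INSR (ENSG00000171105, chromosome 19, 7112255 to 7294034, minus strand) encodes the insulin receptor and was far less abundant, at 4.99, 4.74 and 4.65 CPM in control and 5.95, 6.13 and 6.29 CPM in fluoxetine libraries. For both genes all 3 fluoxetine libraries were above all 3 control libraries. INSR had only 91 to 129 counts per library, its log2 fold change was 0.35 (standard error 0.14), and it was not called.

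The closest relatives of these feedback genes did not all move with them. IGF1R, the IGF1 receptor, went from 124.7 ± 8.28 to 161.1 ± 13.6 CPM (SD, n = 3), with a log2 fold change of 0.37 (edgeR adjusted p = 0.0188). It passed in 10 of 14 alternatives, but not without control replicate 1 or 2 (0.29 and 0.32) or fluoxetine replicate 1 or 3 (0.32 and 0.30). IRS1, the other main adaptor, was at 46.8 ± 5.19 and 44.3 ± 4.49 CPM (SD, n = 3), with overlapping groups and a difference on the log2 scale of -0.08 (edgeR adjusted p = 0.667). Whether the difference of IRS2 was larger than that of IRS1 was not tested.

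SESN1 and SESN3 encode sestrins, stress proteins that restrain mTORC1 and that FOXO factors (mainly SESN3) or p53 (mainly SESN1) are known to induce. SESN3 (ENSG00000149212, chromosome 11, 95165513 to 95232541, minus strand) was at 88.8, 107.0 and 123.6 CPM in control and 149.8, 123.5 and 154.4 CPM in fluoxetine libraries. Control replicate 3 was as high as fluoxetine replicate 2, so the groups met. The log2 fold change was 0.42 (standard error 0.12) and ranged from 0.27 to 0.51 over the fits that left out a library. It was not called without control replicate 1 or 2 (0.27 and 0.38) or without fluoxetine replicate 1 or 3 (0.35 and 0.34). SESN1 (ENSG00000080546, chromosome 6, 108986437 to 109094819, minus strand) was at 13.3, 14 and 14.4 CPM in control and 12.8, 11.8 and 12.1 CPM in fluoxetine libraries. Its fluoxetine libraries were all lower, by less than in any other gene of the 10, with a log2 fold change of -0.18 (standard error 0.11). SESN2, the third sestrin and a target of the stress factor ATF4, was at 22.8 ± 2.57 and 23.7 ± 1.23 CPM (SD, n = 3), with a log2 fold change of 0.06 (edgeR adjusted p = 0.772) that became -0.05 without control replicate 3. An antisense gene that overlaps exons of SESN3, AP000787.1, had 18 to 28 counts in each library beside at least 1957 for SESN3.

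TXNIP (ENSG00000265972, chromosome 1, 145992435 to 145996600, minus strand) encodes an arrestin-like protein that binds thioredoxin and lowers glucose uptake, and its transcript follows glucose through the MondoA and ChREBP factors. It is the gene whose promoter holds the FOXO element shown above. Its level was 69.8, 71.3 and 73.5 CPM in control and 58.5, 63.2 and 59.0 CPM in fluoxetine libraries. All fluoxetine libraries lay below all control libraries, with a fold change of 0.842 (log2 fold change -0.25, standard error 0.08). It was called lower by DESeq2, and by edgeR without control replicate 3 (-0.26) or fluoxetine replicate 2 (-0.32). ARRDC4, its paralog with the same known glucose response, was at 30.7 ± 3.10 and 29.5 ± 1.19 CPM (SD, n = 3), with a log2 fold change of -0.06 (edgeR adjusted p = 0.724). MLXIPL, which encodes ChREBP, was low and rose from 2.55 ± 0.255 to 4.15 ± 0.513 CPM (SD, n = 3), with a log2 fold change of 0.71 (edgeR adjusted p = 0.031). Of the fits that left out a library, MLXIPL passed only in that without fluoxetine replicate 2, and DESeq2 did not call it (adjusted p = 0.0528).

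**Figure D2:**
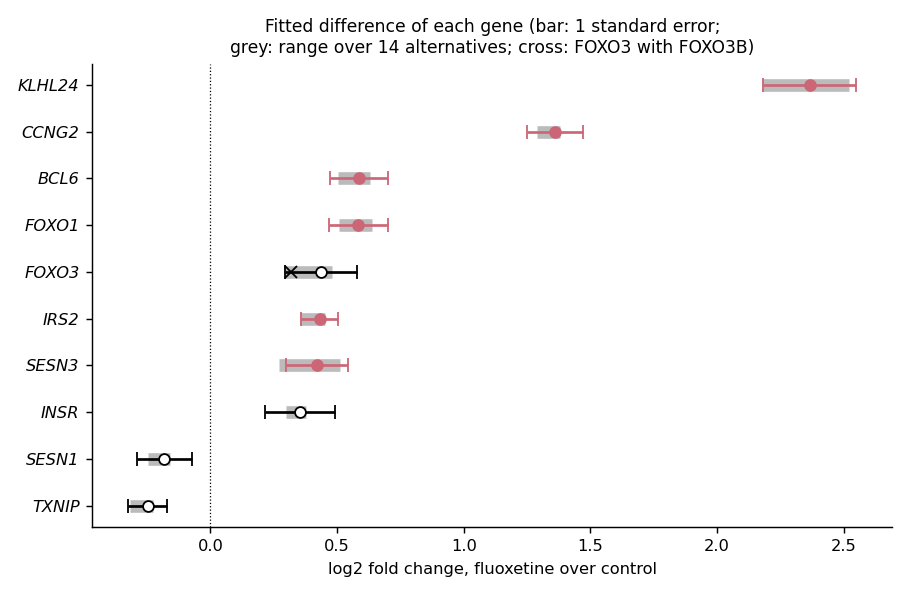
Log2 fold change of fluoxetine over control for each of the 10 genes (points) with 1 standard error (bars), the range over 14 alternatives (grey), and FOXO3 with FOXO3B counts added (cross). Filled red points are the 6 genes called higher by edgeR, and the 2 genes left of 0, SESN1 and TXNIP, stay left of 0 over the whole grey range.

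To compare levels between genes, CPM was divided by the exon length of each gene in kb (RPKM). In control cells the order by RPKM was TXNIP (19.7 ± 0.506, SD, n = 3), IRS2 (10.95 ± 0.438), SESN3 (10.1 ± 1.65), SESN1 (2.71 ± 0.107), BCL6 (2.16 ± 0.223), FOXO1 (1.49 ± 0.0296), FOXO3 (1.19 ± 0.168), CCNG2 (1.07 ± 0.0368), INSR (0.459 ± 0.0169) and KLHL24 (0.229 ± 0.0504). The libraries of neighbours in this order did not overlap except for IRS2 with SESN3 and FOXO3 with CCNG2. With fluoxetine, TXNIP (16.6 ± 0.701), IRS2 (14.8 ± 0.799) and SESN3 (13.5 ± 1.57) were still at the top and INSR (0.586 ± 0.0162) became the lowest. CCNG2 went from rank 8 to rank 5, at 2.76 ± 0.146 RPKM, and passed SESN1, which went from rank 4 to rank 6, at 2.39 ± 0.0916 RPKM. KLHL24, at 1.19 ± 0.110 RPKM, passed INSR. Under fluoxetine, IRS2 and SESN3 again overlapped, as did SESN1 and FOXO1.

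**Figure D3:**
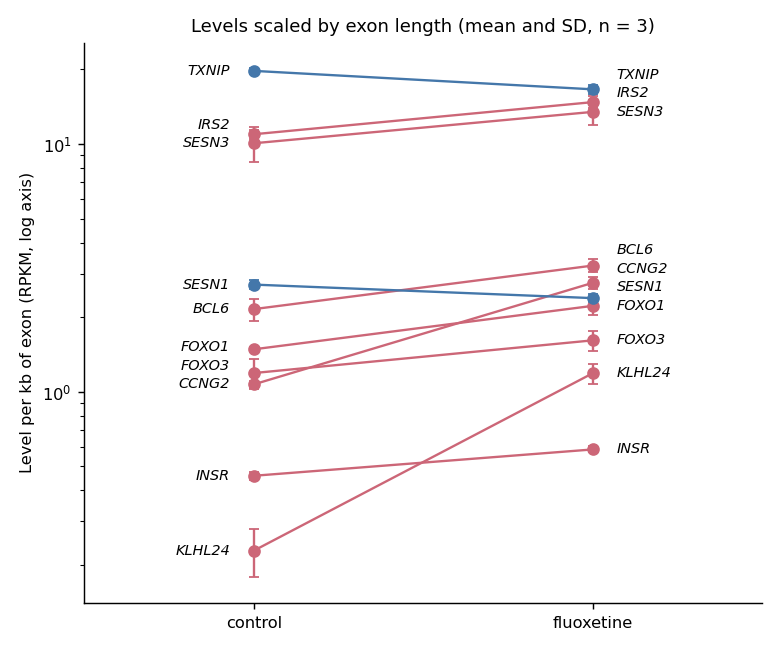
Level per kb of exon (RPKM, log axis) of each gene in control and fluoxetine cells, as mean and SD over 3 libraries. Lines are red for the 8 genes with a higher and blue for the 2 with a lower level under fluoxetine, and the steepest are those of KLHL24 and CCNG2.

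Some genes outside the 10 followed the same pattern over the 6 libraries. Among genes with a mean of at least 5 CPM, those with the highest Pearson correlation of log2 CPM with FOXO1 were CTSB (0.997), TMBIM1 (0.996) and IFT140 (0.996), and with FOXO3 they were CTH (0.996), B4GALT5 (0.996) and ELMO2 (0.995). For KLHL24 they were RETREG2 (0.999), COL4A3BP (0.998) and BNIP3L (0.998). The 6 points are 2 groups of 3 libraries, so these values in part describe the difference between the groups. They are also the highest among all genes compared, and such a choice favors high values.

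The rest of the pathway was described with 129 further genes in 8 lists, of which 112 were tested. Of these, edgeR called 23 as risen and 3 as fallen (20.5% and 2.68%, beside 7.76% and 5.32% of all tested genes), and 86 did not pass. Their median log2 fold change was 0.07, beside 0.03 for all tested genes. The 8 lists were written with earlier results of these data known, so nothing is read from their shares or medians, here or below. The adjusted p-values of single genes taken from them are likewise given as a description. Of the FOXO family and the paralogs of the 10, 3 of 8 tested genes rose (FOXO4, IGF1R and CCNG1) and the median was 0.17. Only FOXO4, the third FOXO factor tested, rose by at least 2-fold, from 1.6 ± 0.0809 to 3.31 ± 0.464 CPM (SD, n = 3), with a log2 fold change of 1.05 (standard error 0.21, edgeR adjusted p = 0.00934), and 0.99 without fluoxetine replicate 1, where it did not pass. The number that rose became 10 without control replicate 1, 6 without control replicate 2, 4 without fluoxetine replicate 1 and 9 without fluoxetine replicate 3. The number that fell became 1 without control replicate 2, 14 without control replicate 3, 0 without fluoxetine replicate 1, 5 without fluoxetine replicate 2 and 0 without fluoxetine replicate 3. Over all tested genes, the number that rose likewise went from 1214 to 409, and the number that fell from 833 to 163, without fluoxetine replicate 1.

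Of the genes that FOXO factors are known to induce, 8 of 19 tested rose (42.1%, beside 7.76% of all tested genes) and 11 did not pass. The median log2 fold change was 0.22, and 12 of the 19 lay above 0. Of the 8 that rose, those with the smallest p-values were PDK4, SOD2, TOB1 and HBP1. PDK4 keeps pyruvate out of the mitochondrial oxidation of glucose, and SOD2 is the mitochondrial superoxide dismutase. TOB1 is an antiproliferative protein, and HBP1 is a repressor of cell cycle genes. PDK4 went from 14 ± 1.22 to 28.0 ± 0.565 CPM (SD, n = 3), with a log2 fold change of 0.99 (edgeR adjusted p = 2.4e-04). SOD2 went from 336.6 ± 7.35 to 480.5 ± 7.62 CPM (log2 fold change 0.51, edgeR adjusted p = 7.73e-04), and TOB1 from 205.7 ± 3.75 to 279.6 ± 11.4 CPM (log2 fold change 0.44, edgeR adjusted p = 0.00238). PDK4, SOD2 and TOB1 passed in all 14 alternatives, each fit that left out a library included. HBP1 had a log2 fold change of 0.75 (edgeR adjusted p = 0.0166) and passed in 11 of 14, but not without control replicate 1 or 2 or fluoxetine replicate 1 (0.57, 0.69 and 0.66). None (0) of the 19 fell by edgeR, although 2 were lower at an unadjusted p-value under 0.05, and DESeq2 called 1 and limma-voom 0. Lower but just short of the threshold were GADD45A (log2 fold change -0.45, edgeR adjusted p = 0.0588) and PRDX3 (-0.22, edgeR adjusted p = 0.0596). CDKN1A and CDKN1B had log2 fold changes of 0.20 and 0.22 and did not pass (edgeR adjusted p = 0.192 and 0.183). Another 9 genes of this list had too few counts to test or were not analysed here.

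Of 5 tested genes that FOXO factors repress or AKT promotes, 1 fell (20.0%, beside 5.32% of all tested genes). This was HK2, a hexokinase of glycolysis. It went from 83.9 ± 2.66 to 67.5 ± 6.57 CPM (SD, n = 3), with a log2 fold change of -0.31 (edgeR adjusted p = 0.0406), and passed in 8 of 14 alternatives. Of the fits that left out a library, it passed only without control replicate 1 or 3, and it did not pass with library size only (edgeR adjusted p = 0.0627) or equal depth (0.0545).

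Upstream of AKT, 4 of 14 tested genes of PI3K subunits, PDK1 and lipid phosphatases rose (28.6%, beside 7.76% of all tested genes), with a list median of 0.28. Among them were 2 regulatory subunits and a catalytic subunit. PIK3R1, which encodes the p85 alpha subunit, went from 43.9 ± 8.79 to 76.8 ± 13.7 CPM (SD, n = 3), with a log2 fold change of 0.81 (edgeR adjusted p = 0.00884). PIK3R3 (edgeR adjusted p = 0.0152) had a log2 fold change of 0.67, and PIK3CA, the p110 alpha subunit (edgeR adjusted p = 0.0314), of 0.61. PIK3R1 did not pass without control replicate 2 or fluoxetine replicate 1 (0.73 and 0.78), PIK3R3 without fluoxetine replicate 1 or 3 (0.64 and 0.60), or PIK3CA without control replicate 1 or 2 or fluoxetine replicate 1 or 3 (0.42 to 0.60).

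Among 13 tested receptors and adaptors, 3 rose (23.1%, beside 7.76% of all tested genes) and the median was 0.28. These were IGF2R, the receptor that carries lysosomal enzymes and binds IGF2, with a log2 fold change of 0.69 (edgeR adjusted p = 0.00836), and the receptor tyrosine kinases EGFR (0.50, adjusted p = 0.0296) and MET (0.45, adjusted p = 0.0183). EGFR and MET did not pass without control replicate 1 or 2 or fluoxetine replicate 1 or 3, where their log2 fold changes were 0.36 to 0.45 and 0.33 to 0.42. SESN3, IGF1R, PIK3CA and GSK3B did not pass in these same fits. The genes share the same libraries, so their results are not independent of each other. IGF2R did not pass without control replicate 2 or fluoxetine replicate 1 (0.67 and 0.63).

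AKT1 and AKT2 themselves were not called. AKT1 was at 177.5 ± 11.9 and 154.3 ± 1.35 CPM (SD, n = 3), with each fluoxetine library below each control library and a difference on the log2 scale of -0.20 (edgeR adjusted p = 0.0942), and it passed in 1 of 14 alternatives, that without control replicate 3 (-0.25). AKT2 had a log2 fold change of -0.04 (edgeR adjusted p = 0.794), with overlapping groups. Of 12 tested AKT and SGK kinases and their regulators, 1 rose (8.33%, close to the 7.76% of all tested genes). This was TRIB3, a pseudokinase that binds AKT and is a target of ATF4 and CHOP. It went from 41.9 ± 7.0 to 58.5 ± 8.12 CPM (SD, n = 3), with a log2 fold change of 0.48 (edgeR adjusted p = 0.0443), but did not pass without control replicate 2 or 3 (0.49 and 0.32) or fluoxetine replicate 1 or 2 (0.43 and 0.36), or with RLE normalization (edgeR adjusted p = 0.0582).

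Of 24 tested AKT substrates and FOXO regulators, 2 rose and 1 fell, and the median was -0.05. These were 8.33% and 4.17%, close to the 7.76% and 5.32% of all tested genes. SIRT2, a deacetylase that acts on FOXO factors, had the largest rise, from 33.5 ± 2.35 to 58.2 ± 5.42 CPM (SD, n = 3), with a log2 fold change of 0.80 (edgeR adjusted p = 7.73e-04), and passed in all 14 alternatives. GSK3B, a kinase that AKT inhibits, also rose, with a log2 fold change of 0.39 (edgeR adjusted p = 0.0231), and did not pass without control replicate 1 or 2 or fluoxetine replicate 1 or 3 (0.30 to 0.39). YWHAE, the 14-3-3 epsilon protein, fell from 1066 ± 26.5 to 865.3 ± 41.3 CPM (SD, n = 3), with a log2 fold change of -0.30 (edgeR adjusted p = 0.0174), and passed in all alternatives except those without fluoxetine replicate 1 or 3 (-0.30 and -0.32). Among 17 partners of the proteins of the 10 genes, MLXIPL and NEDD4L (log2 fold change 0.38, edgeR adjusted p = 0.0498), a ubiquitin ligase, rose and RBX1, a subunit of cullin ligases, fell (log2 fold change -0.42, edgeR adjusted p = 0.0399). The shares of this list were 11.8% risen and 5.88% fallen. Of the fits that left out a library, NEDD4L passed only without control replicate 3, and it did not pass with limma-voom (adjusted p = 0.0517), RLE normalization (0.0571) or no filter on low counts (0.0598). It passed in 6 of 14 alternatives in all. RBX1, of the fits that left out a library, passed only without control replicate 3 or fluoxetine replicate 2.

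**Figure D4:**
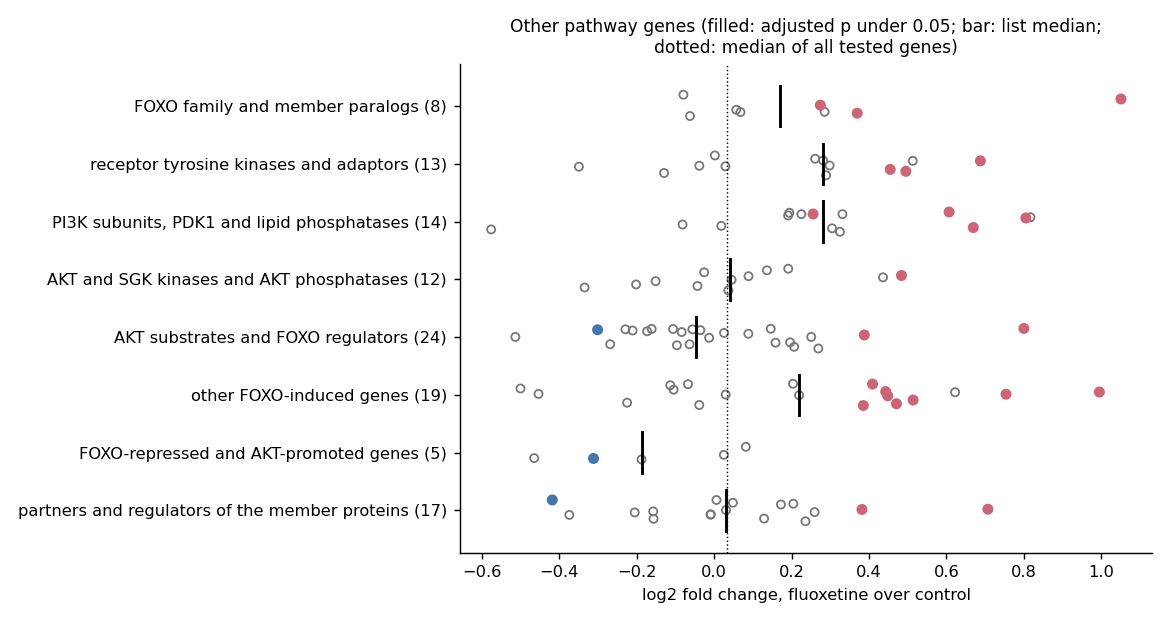
Log2 fold change of fluoxetine over control for the 112 tested genes outside the 10, by list, with the number tested in brackets. Filled points passed an adjusted p-value of 0.05 (red higher, blue lower), vertical bars are list medians and the dotted line is the median of all tested genes, 0.03. The 8 filled points of the FOXO-induced list all lie right of 0.

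The pathways annotated in the deposited table gave a broader view, which was added after the table had been read. With the 10 genes left out, 97 genes of KEGG FoxO signaling were tested, of which 16 rose and 8 fell (16.5% and 8.25%), with a median log2 fold change of 0.10. KEGG insulin signaling had 20 rising and 7 falling genes of 108 (18.5% and 6.48%, median 0.10), and KEGG PI3K-Akt signaling 27 and 9 of 224 (12.1% and 4.02%, median 0.07). Over all tested genes, 7.76% rose and 5.32% fell, with a median of 0.03. The share that fell was thus also above that of all genes in the FoxO and insulin lists.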

How the data were processed

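The authors deposited 1 table of raw counts of reads per gene and library for 3 control and 3 fluoxetine libraries of H460 cells. The submitters' processing notes list fastp 0.20.0, HISAT2 2.1.0, HTSeq 0.10.0 and DESeq2 1.18.1. The build, annotation and strand setting are not given in the sources used here, and coordinates were identical to GENCODE release 29 (GRCh38) for 96.8% of the 31635 genes found in both. The authors' own comparison, deposited as columns that include p-values and log2 fold changes, was not used.

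The test was that of edgeR 4.0.16 in R 4.3.3 (glmQLFit and glmQLFTest, TMM, filterByExpr, no covariate), with Benjamini-Hochberg adjustment over 15646 genes. A gene was called, or said to rise or fall, at an adjusted p-value under 0.05. Standard errors are the fitted log2 fold change divided by the square root of the F statistic. The script was tested on simulated data. Exon lengths are unions of GENCODE 29 exons. The 8 lists were written from general knowledge, and the 10 genes and the lists were chosen with earlier results of these data known. Named are the 10 genes, 11 fixed pathway genes (some genes that this rule takes are not reported here), up to 4 called genes per list and direction by smallest p-value, overlapping genes and copies, and for 3 genes the 3 most alike by correlation. Alternatives were DESeq2 1.42.0, limma-voom (limma 3.58.1), RLE, library size only, a minimum of 10 counts per library or no filter, the replicate block, thinning to equal depth, and leaving out each library. KEGG lists, promoter motifs and the sum of FOXO3 and FOXO3B counts were added after seeing the data. GADD45A, PRDX3, CDKN1A and CDKN1B were named outside the rule, also after seeing the data. Promoters are RefSeq's.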

Additional observations from a re-analysis of the deposited data

How the results depend on the processing

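No gene of the 10 changed direction in any of 14 alternatives. Of the other pathway genes named by the rule above, SESN2 (-0.0465 without control replicate 3) did. With a library left out, its log2 fold change was between -0.0465 and 0.107. Of the 10, the number called higher (6) was between 3 and 7 with a library left out, losing IRS2 and SESN3 without control replicate 2 (with FOXO1) and without fluoxetine replicate 1 (with BCL6), 2 with a fold change of at least 2, and 7 with the replicate block, which added FOXO3. The number called lower (0) was 1, TXNIP, with DESeq2, with RLE normalization and with the replicate block, and between 0 and 1 with a library left out. SESN3 was not called by limma-voom, RLE normalization or library size only.

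The 23 other pathway genes that rose became between 4 and 26 with a library left out and 1 with a fold change of at least 2. The 3 that fell became 5 with DESeq2 and with RLE normalization, 7 without a filter and with the replicate block, 0 with a fold change of at least 2, and between 0 and 14 with a library left out. Over all genes, 1214 rose and 833 fell. With a fold change of at least 2 these were 197 and 24, with the replicate block 2231 and 1787, without a filter 1516 fell, and with a library left out between 409 and 1627 rose and between 163 and 2006 fell. The cause was not tested. Same-numbered libraries of the groups had correlated deviations of -0.123, 0.341 and 0.697, and the numbers were not taken to pair them. Other pairs reached 0.575 (control 1 with fluoxetine 2) and -0.633 (control 3 with fluoxetine 2). Deviations from the mean of 3 libraries depend on each other, so these values cannot exclude a pairing.

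KLHL24, INSR, FOXO1 and FOXO3 had at most 280 counts in any library, and thinning all libraries to equal depth left the number called higher at 6.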
